A study of Mus musculus with 12 samples.

Results

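The oligodendrocyte lineage and myelin genes described here are Mbp, Mog, Mag, Mobp, Cnp, Olig1, Olig2, Sox10 and Pdgfra, 9 of the 24091 genes in the deposited table. They were chosen by name, as markers of the cells that make myelin in the brain, with earlier results of these data known. Each symbol matched 1 row. Poly(A) RNA of mouse cerebellum and medulloblastoma, a cerebellar tumor, was sequenced in 12 samples that form 4 groups of 3. The tumor group held medulloblastomas of mice GB344, GB359 and GB370, whose genotype is Brca2-mut;Trp53-mut, and the adjacent group held cerebellum next to the tumor in the same 3 mice. The other groups were tumor-free cerebella of Brca2-mut;Trp53-WT mice (GB361, GB508 and GB512) and of Brca2-WT;Trp53-mut mice (GB517, GB519 and GB520), called the Brca2-mutant and the Trp53-mutant controls below and the control cerebella together. In Brca2-mut mice, Cre driven by the human GFAP promoter removes early exons of Brca2 in the developing central nervous system, and Trp53-mut is a knockout in the whole animal, so no group was wild type at both genes. The GFAP promoter drives Cre in neural progenitors, from which glia also descend, and the deletion was not measured here by cell type. The study calls the control cerebella age-matched adult tissue, while the labels give no ages.

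Oligodendrocytes wrap axons in myelin, a stack of membrane held together by proteins such as myelin basic protein (Mbp). They arise from progenitors that carry the receptor for platelet-derived growth factor (PDGF), encoded by Pdgfra, and that divide when PDGF-AA binds it. Olig1, Olig2 and Sox10 are transcription factors present from progenitor to mature cell, whereas Mbp, Mog, Mag and Mobp are expressed as the cells mature and Pdgfra is switched off. In the cerebellum most myelin lies in the white matter beneath the granule layer, so a dissection can also change how much of it a sample holds.

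Expression is given as TPM, a length-corrected share of all transcripts scaled to the same total in each sample, so levels of different genes can be compared. Each sample summed to between 999793 and 999876 TPM over all genes. Read depth was unknown, and the error of each value is its scatter over mice. The TPM of Trp53 was 124 to 130.5 in tumors, 66.1 to 85.0 in adjacent cerebella, 33.1 to 37.2 in the Brca2-mutant controls and 47.1 to 49.4 in the Trp53-mutant controls. Brca2 was at 8.22 to 14.6 TPM in tumors and at 3.24 to 4.40 TPM over both control groups. These gene totals also count the exons that the alleles keep, so they do not check the genotypes. The 5 genes listed for granule cell progenitors and tumor cells (Atoh1, Barhl1, Gli1, Mki67 and Top2a) summed to 736 to 1132 TPM in tumors and to 28.5 to 42.3 TPM in control cerebella. In the adjacent cerebella they summed to 361.2 TPM in GB344, 299.9 in GB359 and 55.3 in GB370. All 3 adjacent samples thus lay above the control range, GB344 and GB359 far above it.

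Sequence upstream of the start site is shown for the myelin genes Mobp, Mag, Cnp and Mog, whose levels moved together, and for Pdgfra, which moved the other way. RefSeq promoter entries (GRCm38.p6, the same coordinates as mm10) matched 6 of the 9 members, with none for Mbp, Olig1 or Sox10. The 250 bases before the start were searched on both strands for ACAAAG, the core that Sox factors bind, for the related ACAATG, for CAGCTG, an E-box of the kind bound by basic helix-loop-helix factors such as the Olig proteins, and for TATAAA. The stretches below run 5′ to 3′ on the strand of the gene, stop before the first annotated exon in GENCODE vM21, and have ACAAAG, or CTTTGT for the opposite strand, in capitals. The Pdgfra stretch precedes the first GENCODE exon of that gene, but the RefSeq span given for Pdgfra below begins further upstream and includes it.
Mobp (chr9:120149492-120149706, plus strand): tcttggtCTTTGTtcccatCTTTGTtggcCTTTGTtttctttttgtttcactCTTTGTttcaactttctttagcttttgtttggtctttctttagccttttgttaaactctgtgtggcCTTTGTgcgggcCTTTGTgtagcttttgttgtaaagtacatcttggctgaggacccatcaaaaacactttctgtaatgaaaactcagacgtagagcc
Mag (chr7:30914923-30915172, minus strand): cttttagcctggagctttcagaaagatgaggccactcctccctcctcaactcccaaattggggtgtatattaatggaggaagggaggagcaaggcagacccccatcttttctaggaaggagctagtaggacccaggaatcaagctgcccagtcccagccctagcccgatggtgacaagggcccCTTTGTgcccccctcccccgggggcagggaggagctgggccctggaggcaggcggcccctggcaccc
Cnp (chr11:100574689-100574903, plus strand): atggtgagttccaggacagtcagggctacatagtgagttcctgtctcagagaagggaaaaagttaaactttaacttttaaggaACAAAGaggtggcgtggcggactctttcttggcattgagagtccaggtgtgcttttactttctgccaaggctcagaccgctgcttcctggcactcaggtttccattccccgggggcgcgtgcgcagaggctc
Mog (chr17:37023399-37023648, minus strand): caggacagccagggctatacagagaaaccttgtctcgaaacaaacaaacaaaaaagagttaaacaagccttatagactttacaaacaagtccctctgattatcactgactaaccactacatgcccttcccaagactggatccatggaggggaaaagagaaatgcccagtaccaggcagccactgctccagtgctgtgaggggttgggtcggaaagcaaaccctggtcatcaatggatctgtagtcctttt
Pdgfra (chr5:75152001-75152250, plus strand): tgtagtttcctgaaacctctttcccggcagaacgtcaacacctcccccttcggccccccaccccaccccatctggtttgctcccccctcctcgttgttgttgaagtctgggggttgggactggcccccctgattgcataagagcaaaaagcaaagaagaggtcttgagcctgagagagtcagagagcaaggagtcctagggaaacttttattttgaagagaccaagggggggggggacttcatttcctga
The Mobp stretch held 6 matches to ACAAAG, more than any other of the 32851 promoter windows of the same length. At least 1 match was present in 16.46% of all windows. Mag and Cnp held 1 match each in the windows shown, and Mog and Pdgfra held 0. CAGCTG, present in 13.0% of all windows, was in 0 of the 8 windows of the members. ACAATG (10.69% of windows) and TATAAA (12.37%) were each found once among the members, both in Olig2. A match is a run of letters and was not tested as a binding site.

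All 9 members passed the expression filter in each of the 4 comparisons. A gene was called with limma on log2(TPM + 1) where its p, adjusted over all genes tested, was under 0.01 and its log2 fold change was 1 or more in size. Fold changes on this scale understate the change of low genes. In tumors against control cerebella 7 of 9 members were called, 2 higher (Olig2 and Pdgfra) and 5 lower (the myelin genes), where 35.9% of the 16241 genes tested were called, 14.4% upward and 21.5% downward. Of the members, 2 were higher and 6 lower without overlap of tumors and control cerebella, beside 28.3% and 35.7% of all genes tested. On the log2 scale the median difference was -3.46 over the members and -0.11 over all genes. The tumors thus held little RNA of the myelin proteins and more of 2 genes that oligodendrocyte progenitors express. Olig1 (0.30) and Sox10 (-0.63), which progenitors also express, were not called. A list of 12 further genes of progenitors and newly formed oligodendrocytes had 2 called higher and 3 lower, at a median of -0.22. In bulk tissue, fewer cells of a type and less RNA per cell cannot be told apart.

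**Figure D1:**
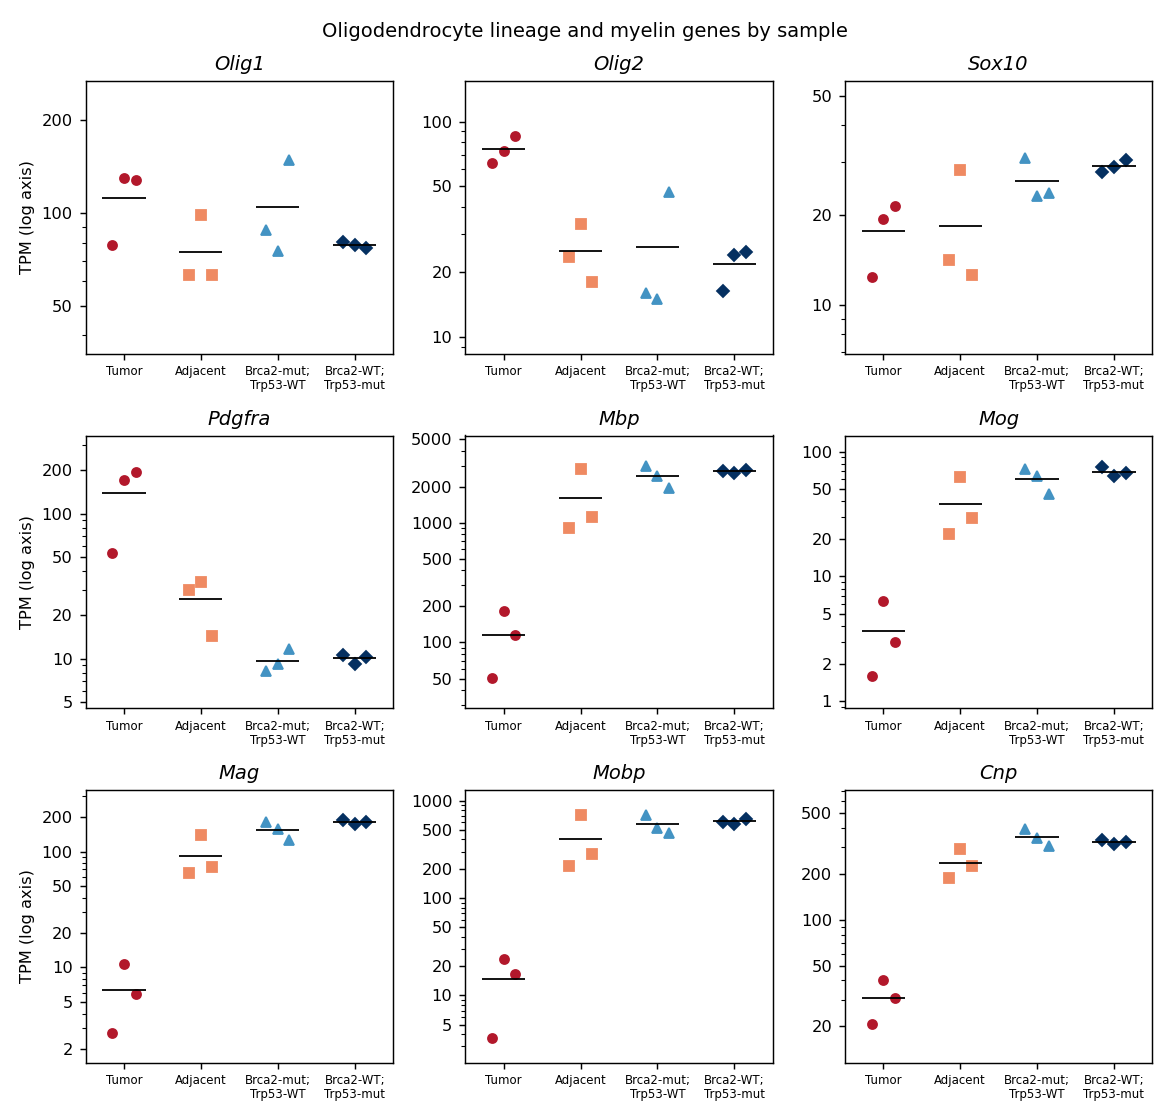
TPM of the 9 genes in each of the 12 samples (log axis), by group, with 1 point per mouse in order of mouse number and a line at the group mean. The 5 myelin genes lie lowest in the 3 tumors, Pdgfra and Olig2 lie highest there, and Olig1 overlaps between all groups.

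Olig1 and Olig2 are neighbours on chromosome 16 (chr16:91269769-91271939 and chr16:91225550-91228677, mm10) and encode related basic helix-loop-helix factors. Olig2 was at 64.1, 73.1 and 85.6 TPM in the tumors of GB344, GB359 and GB370 and at 23.5, 33.4 and 18.04 TPM in the adjacent cerebella of the same mice. It was at 16.0, 15.1 and 47.1 TPM in the Brca2-mutant controls GB361, GB508 and GB512 and at 16.4, 24.1 and 24.7 TPM in the Trp53-mutant controls GB517, GB519 and GB520. Every tumor lay above every other sample, and GB512 stood apart from the other 5 control cerebella. Olig2 was 3.11-fold higher in tumors than in control cerebella by mean TPM, with a log2 fold change of 1.70 ± 0.31 (SE) and a limma adjusted p of 0.000634. Against adjacent cerebellum the log2 fold change was 1.57 ± 0.23, with a limma adjusted p of 0.0021, and the tumor was above its own adjacent sample in each mouse, by 2.73-fold in GB344, 2.19-fold in GB359 and 4.74-fold in GB370.

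Olig1 did not follow Olig2. It was at 78.8, 129.8 and 128 TPM in the tumors, at 62.8, 98.5 and 63.1 TPM in adjacent cerebella, at 88.4, 75.3 and 149 TPM in the Brca2-mutant controls and at 80.6, 78.5 and 77.0 TPM in the Trp53-mutant controls. The highest sample was again GB512, a control, and the ranges of all neighbouring groups overlapped. The log2 fold change in tumors against control cerebella was 0.30 ± 0.23 (95% interval -0.22 to 0.82; limma adjusted p = 0.268), and against adjacent cerebellum it was 0.57 ± 0.26 (limma adjusted p = 0.106). The ratio of Olig2 to Olig1 was 0.563 to 0.813 in tumors, 0.286 to 0.374 in adjacent cerebella and 0.181 to 0.321 in control cerebella.

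Sox10, at chr15:79154913-79164490, activates myelin genes together with Myrf. It was at 12.4, 19.4 and 21.4 TPM in tumors, 14.1, 28.2 and 12.6 in adjacent cerebella, 31.1, 23.2 and 23.8 in the Brca2-mutant controls and 27.8, 28.9 and 30.4 in the Trp53-mutant controls. All 3 tumors lay below all 6 control cerebella, but the difference was small, with a log2 fold change of -0.63 ± 0.17 (limma adjusted p = 0.00604), under the fold minimum and therefore not called. Tumor and adjacent cerebellum overlapped, and their difference was 0.01 ± 0.34 on the log2 scale (95% interval -0.80 to 0.82). Its sign changed when single samples were left out. Olig2 exceeded Sox10 by 3.78- to 5.16-fold in tumors, and the ratio was 0.514 to 1.98 in control cerebella, where the top value was that of GB512.

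Pdgfra lies at chr5:75151322-75198206. It was at 53.3, 172 and 193 TPM in the tumors of GB344, GB359 and GB370, and at 30.0, 33.9 and 14.2 TPM in their adjacent cerebella. In the 6 control cerebella it was between 8.20 and 11.7 TPM, with a median of 9.74 TPM. The groups formed 3 levels with no overlap, tumor above adjacent cerebellum above control, and the control genotypes overlapped each other. Pdgfra was 14.1-fold higher in tumors than in control cerebella by mean TPM (log2 fold change 3.498 ± 0.34, limma adjusted p = 5.52e-06). Against the 3 Brca2-mutant controls alone the log2 fold change was 3.53, and against the 3 Trp53-mutant controls alone it was 3.47, both called by limma. Against adjacent cerebellum it was 2.26 ± 0.54, and a limma adjusted p of 0.0129 left it outside the call. The tumor of GB344 was only 1.78-fold above its adjacent sample, and the tumors of GB359 and GB370 were 5.07- and 13.6-fold above theirs. Leaving out single samples gave differences from 1.89 to 2.85. The top value came without the GB344 tumor, the lowest of the 3, and was called (limma adjusted p = 0.00219). Of 16 alternatives, 11 left Pdgfra uncalled.

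Fibroblasts of the meninges and vessels also express Pdgfra. The 5 fibroblast markers Col1a1, Col1a2, Col3a1, Dcn and Lum summed to 35.2 to 187 TPM in tumors, 64.8 to 89.3 TPM in adjacent cerebella and 50.0 to 58.2 TPM in control cerebella, and 1 of the 5, Col3a1, was called higher in tumors than in control cerebella. Col3a1, a fibrillar collagen, was at 60.5, 7.37 and 26.5 TPM in the tumors of GB344, GB359 and GB370 and at 1.99 to 2.75 TPM in control cerebella (log2 fold change 2.86 ± 0.47, limma adjusted p = 0.000299). Col1a1 and Lum were at 0.97 and 0.94 on the log2 scale and were not called. The part of fibroblasts in the Pdgfra values was not tested. Dcn, the most abundant of the 5 over all samples, averaged 26.0 ± 11.2 TPM over the tumors (SD, n = 3) and 25.7 ± 1.96 TPM over the control cerebella (SD, n = 6).

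Of the 4 PDGF ligand genes and Pdgfrb, the other PDGF receptor, 2 rose and 1 fell in tumors against control cerebella. Pdgfa, which encodes the ligand that drives progenitor division through Pdgfra, was at 100.2, 126 and 221 TPM in the tumors of GB344, GB359 and GB370, at 63.8, 59.7 and 37.4 TPM in their adjacent cerebella and at 35.6 to 44.9 TPM in control cerebella. Each tumor lay above every non-tumor sample. Its log2 fold change was 1.74 ± 0.21 against control cerebella (limma adjusted p = 2.65e-05) and 1.41 ± 0.33 against adjacent cerebellum, which was not called (limma adjusted p = 0.0117). Pdgfc rose by 1.06 on the log2 scale against control cerebella (limma adjusted p = 0.00726), with 8.70 TPM in the GB344 tumor and 2.84 and 2.60 TPM in the others. Pdgfd fell, by 2.48 on the log2 scale (limma adjusted p = 2.06e-07). Pdgfb and Pdgfrb were not called, at -0.36 and -0.23.

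Against control cerebella, Mobp, Mag, Mbp and Mog showed the largest differences of the members. The change of Cnp (-3.46 on the log2 scale) was slightly smaller in size than that of Pdgfra (3.498). Mbp, the major protein that compacts myelin, lies on chromosome 18 (18:82475091-82585637). It was at 50.9, 184 and 115 TPM in the tumors of GB344, GB359 and GB370, at 908, 2791 and 1109 TPM in their adjacent cerebella, at 2982, 2479 and 1938 TPM in the Brca2-mutant controls and at 2723, 2632 and 2788 TPM in the Trp53-mutant controls. Mbp was 22.3-fold lower in tumors than in control cerebella by mean TPM (log2 fold change -4.63 ± 0.32, limma adjusted p = 4.08e-07). It remained the most abundant myelin member in all 12 samples, the tumors included.

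Mobp (chr9:120149742-120181488), which encodes an abundant small protein of central myelin, fell furthest. It was at 3.68, 23.9 and 16.5 TPM in tumors and at 212, 714 and 285 TPM in adjacent cerebella, and the 6 control cerebella held 468 to 717 TPM with no overlap with tumors. This was 40.3-fold lower in tumors than in control cerebella by mean TPM (log2 fold change -5.54 ± 0.42, limma adjusted p = 8.46e-07). Its ratio to Cnp was 0.177 to 0.590 in tumors, against 1.53 to 2.004 in control cerebella.

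Cnp (chr11:100574909-100591875) encodes an enzyme of uncompacted myelin that is already expressed in immature oligodendrocytes, and its difference was the smallest of the myelin members. It was at 20.8, 40.5 and 30.7 TPM in tumors, 189, 290.4 and 227 TPM in adjacent cerebella, 396, 347 and 303 TPM in the Brca2-mutant controls and 334, 314 and 326 TPM in the Trp53-mutant controls. Tumor, adjacent and control samples formed 3 ranges without overlap. Cnp was 11.0-fold lower in tumors than in control cerebella (log2 fold change -3.46 ± 0.17, limma adjusted p = 5.19e-08).

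Mag (chr7:30899175-30914922) encodes an adhesion protein of the myelin layer next to the axon, and Mog (chr17:37010740-37023398) a protein of the outermost layer that appears late in maturation. Mag was at 2.72, 10.8 and 5.87 TPM in tumors, 64.8, 138 and 72.9 TPM in adjacent cerebella and 127 to 189 TPM in control cerebella. Mog was at 1.59, 6.38 and 2.97 TPM in tumors, 21.8, 62.8 and 29.5 TPM in adjacent cerebella and 45.9 to 74.7 TPM in control cerebella. The tumors lay below all other samples for both genes. The log2 fold changes against control cerebella were -4.64 ± 0.29 for Mag and -3.94 ± 0.28 for Mog, with limma adjusted p of 2.06e-07 and 5.06e-07.

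Among the tumors the members shared the lowest sample but not the highest. GB344 was the lowest of the 3 tumors for 9 of 9 members, whereas GB359 was the highest for all 5 myelin members and for Olig1. GB370 was the highest for Olig2, Sox10 and Pdgfra. The ratio of Mbp to Mog stayed between 28.8 and 44.5 in all 12 samples, although each gene varied far more. Pdgfra over Mog was 26.9 to 64.9 in tumors, 0.482 to 1.37 in adjacent cerebella and 0.114 to 0.256 in control cerebella, with no overlap.

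**Figure D2:**
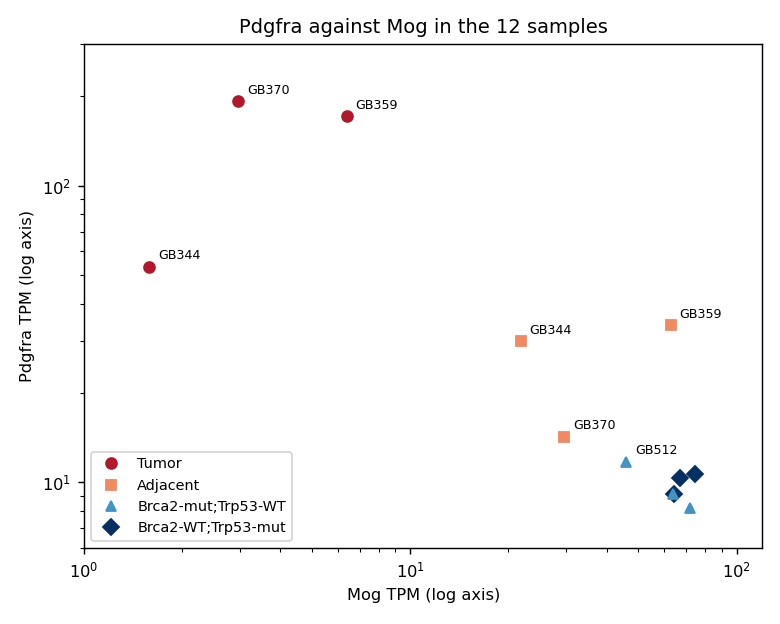
Pdgfra TPM against Mog TPM in each of the 12 samples (both axes log), with the tumors, adjacent cerebella and GB512 named by mouse. Tumors sit at 1.59 to 6.38 TPM Mog and 53.3 to 193 TPM Pdgfra, control cerebella at 45.9 to 74.7 TPM Mog and 8.20 to 11.7 TPM Pdgfra, and adjacent GB359 combines control-range Mog with raised Pdgfra.

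Against the adjacent cerebellum of the same mice, 6 of 9 members were called, Olig2 higher and the 5 myelin genes lower, where 22.8% of 15845 genes were called (4.76% upward and 18% downward). This fit left out the pairing by mouse, and with the mouse as a block no call of a member changed. Without overlap of tumors and adjacent cerebella, 2 members were higher and 5 lower, beside 23.7% and 38.9% of all genes tested. The myelin log2 fold changes were -3.77 for Mbp, -3.06 for Mog, -3.71 for Mag, -4.79 for Mobp and -2.93 for Cnp, with limma adjusted p between 0.000327 and 0.00287. Without the GB370 tumor, Olig2 (1.46, limma adjusted p = 0.0102) and Mog (-3.02, 0.0127) were no longer called. Mbp was lower in the tumor by 17.8-fold in GB344, 15.2-fold in GB359 and 9.68-fold in GB370. Mog was lower by 13.7-, 9.84- and 9.94-fold in the same mice. The comparisons of tumor with control and with adjacent cerebellum share the 3 tumors.

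**Figure D3:**
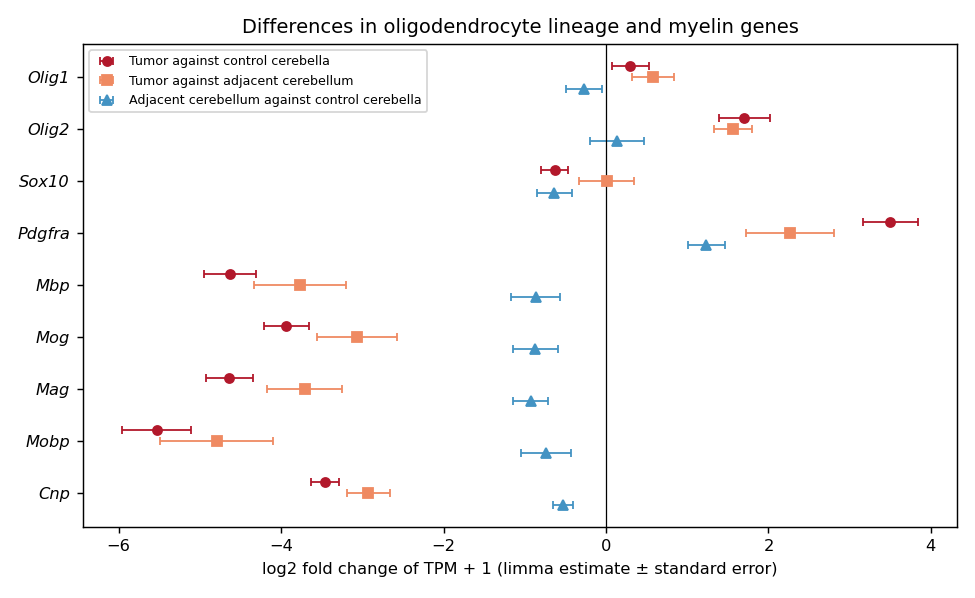
The limma log2 fold change of TPM + 1 for each member (points) with its standard error (bars), for tumors against control cerebella, tumors against adjacent cerebellum and adjacent cerebellum against control cerebella. The myelin genes lie between -5.54 and -2.93 in both tumor comparisons, Pdgfra and Olig2 lie to the right of 0 in both, and the adjacent values lie between -0.93 and 1.24.

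Other genes of the lineage were described from lists of the same kind. Of 23 further genes of mature oligodendrocytes, 0 were called higher and 21 lower in tumors against control cerebella, and the median of the list was -2.97 on the log2 scale. Among them were Ermn, a cytoskeletal protein of mature oligodendrocytes, at -4.40 ± 0.20 (limma adjusted p = 3.55e-08), and Mal, a lipid raft protein of myelin, at -4.18 ± 0.26 (2.02e-07). Mal was at 2.15, 4.61 and 7.11 TPM in the tumors and at 70.9 to 114 TPM in control cerebella, with no overlap. The 2 not called, Anln at 0.19 and Ppp1r14a at -0.75, are named here after their values were seen. Anln also works in cell division, and Ppp1r14a was at 246.5 TPM in the GB344 tumor against 38.6 and 28.7 TPM in the other tumors. Against adjacent cerebellum 16 of the 23 were called lower and 0 higher, among them Mal (-3.68) and Hapln2 (-3.42), an extracellular protein of nodes of Ranvier.

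Of 12 further genes of progenitors and newly formed oligodendrocytes, 2 were called higher and 3 lower in tumors against control cerebella, and the median of the list was -0.22 on the log2 scale. C1ql1, a secreted C1q-like protein also made by neurons, was at 140.0, 237 and 194 TPM in tumors, 49.3, 106 and 12.6 TPM in adjacent cerebella and 8.05 to 20.7 TPM in control cerebella (log2 fold change 3.91 ± 0.28, limma adjusted p = 5.61e-07). Cspg4, the NG2 proteoglycan of progenitors and of pericytes, was at 11.0, 13.8 and 20.8 TPM in tumors and at 3.36 to 6.34 TPM in control cerebella (1.46 ± 0.21, limma adjusted p = 9.68e-05). Tumors lay above control cerebella without overlap for both genes, as for 28.3% of all genes tested. Adjacent GB370 lay inside the control range of C1ql1. The genes called lower were Tnr, an extracellular matrix glycoprotein, at -2.45, Enpp6, an enzyme of newly formed oligodendrocytes, at -2.29, and Ptprz1, a receptor phosphatase also of astrocytes, at -2.19, and the same 3 were called lower against adjacent cerebellum, where 0 of the 12 were called higher. Gpr17, a receptor of committed progenitors, was at 0.12 and not called.

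Of 9 further transcription factors of the lineage, 0 were called higher and 3 lower against control cerebella. Myrf, which switches on myelin genes, was at 1.98, 4.32 and 2.53 TPM in tumors and at 24.7 to 33.5 TPM in control cerebella (-2.98 ± 0.18, limma adjusted p = 1.86e-07). Nkx6-2, a homeodomain factor of maturing oligodendrocytes, fell by 3.08 on the log2 scale, and Nkx2-2, a homeodomain factor of differentiating progenitors, fell by 1.66. Against adjacent cerebellum Myrf (-2.40) and Nkx6-2 (-2.23) were called lower.

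**Figure D4:**
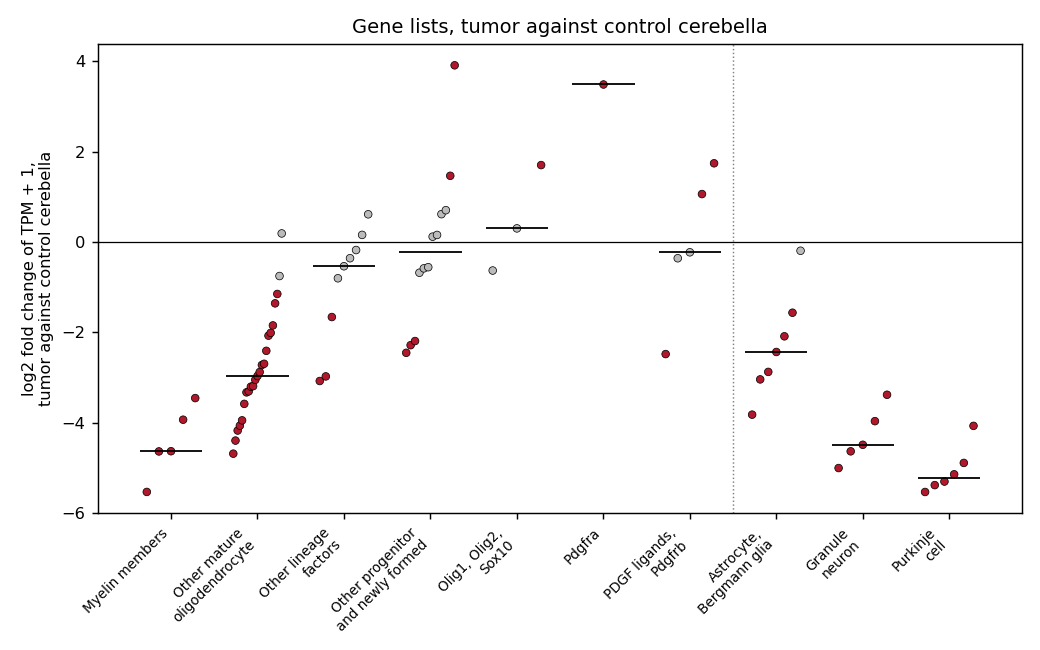
The log2 fold change of TPM + 1 in tumors against control cerebella for each gene of the members and of other lists (points, red where called and grey where not), with a line at each list's median. The mature oligodendrocyte genes lie mostly below 0, at a median of -2.97, the progenitor list spreads from -2.45 to 3.91, and the lists of astrocytes, granule neurons and Purkinje cells to the right of the dotted line also lie below 0.

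Genes of other cerebellar cells also fell in tumors. Of the listed genes, 5 of 5 for granule neurons, 6 of 6 for Purkinje cells and 6 of 7 for astrocytes and Bergmann glia were called lower than in control cerebella, with medians of -4.49, -5.23 and -2.44. Cbln3, made by granule neurons, averaged 28.8 ± 17.6 TPM over the tumors (SD, n = 3) and 618 ± 70.2 TPM over the control cerebella (SD, n = 6), Pcp2 of Purkinje cells was at 72.8 ± 54.5 and 2342 ± 516.9 TPM, and Slc1a3 of Bergmann glia was at 144 ± 41.5 and 768 ± 83.2 TPM. The myelin median of -4.63 thus lies among those of the granule and Purkinje lists, while Olig2 and Pdgfra rose in the same samples. What part a smaller share of cerebellar tissue has in the myelin values was not tested. C1qa of microglia was at 150.3 ± 33.5 TPM in tumors and 46.6 ± 19.0 TPM in control cerebella, and 2 of 7 microglial genes were called higher. Cldn5 of endothelium was at 67.6 ± 14.6 and 44.3 ± 4.91 TPM, and 2 of 5 endothelial genes were called lower.

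Myelin of peripheral nerve shares Mbp and Mag with central myelin. Ncmap, a gene of myelinating Schwann cells, was at 0.924 ± 0.168 TPM in tumors and at 2.58 ± 0.580 TPM in control cerebella. Prx, another such gene, was at 2.01 ± 0.500 TPM in tumors and at 0.583 ± 0.153 TPM in control cerebella. Their log2 fold changes were -0.89 and 0.92 (limma adjusted p = 0.00054 and 0.000274), both under the fold minimum, so 0 of the 2 Schwann cell genes that passed the filter were called. The part of peripheral myelin in the values was not tested. Mog and Mobp, which belong to central myelin, were present in all 12 samples.

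In adjacent cerebella against control cerebella, 0 of 9 members were called by limma, where 0.236% of 16091 genes were called (0.224% higher and 0.0124% lower). At an unadjusted p under 0.05 there were 7 members, beside 34.5% of all genes. At an adjusted p under 0.05 with no fold minimum there were 3, Pdgfra higher and Mag and Cnp lower, beside 15.7% of all genes. Pdgfra in adjacent cerebella was 2.64-fold above control cerebella by mean TPM, and all 3 samples were above all 6 (log2 fold change 1.24 ± 0.23, limma adjusted p = 0.0151). Without the adjacent sample of GB370 it was 1.60 and was called, in a fit that called 586 genes in all. That sample held the least RNA of the listed progenitor and tumor cell genes (55.3 TPM, against 361.2 in GB344 and 299.9 in GB359). Of the 5 fibroblast markers, 1 was called higher in adjacent than in control cerebella, Col3a1 (1.11, limma adjusted p = 0.00883). The part of fibroblasts in the adjacent Pdgfra values was not tested. The log2 fold changes were -0.93 for Mag (limma adjusted p = 0.0245), -0.53 for Cnp (0.0267), -0.87 for Mog (0.0566), -0.86 for Mbp (0.0752) and -0.74 for Mobp (0.123). Of these only Cnp had no overlap with control cerebella. Of all genes tested, 7.64% were lower without overlap, and 11.7%, Pdgfra among them, were higher without overlap.

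The 5 myelin members summed to 1395 to 3996 TPM in the 3 adjacent samples and to 2881 to 4345 TPM in the 6 control cerebella. GB359 had the highest value for 9 of 9 members, and its Mbp (2791 TPM), Mog (62.8), Mag (138) and Mobp (714) lay inside the control range. GB344 had the lowest value for all 5 myelin members, and both GB344 and GB370 lay below all control cerebella for them. Without GB359, 2 members were called lower, Mbp (-1.35) and Mag (-1.26), with limma adjusted p of 0.00795 and 0.00657, in a fit that called 40 genes in all. The tumor marker Atoh1, a factor of granule cell progenitors, was at 59.4 TPM in GB344, 50.5 in GB359 and 4.997 in GB370 and at no more than 0.212 TPM in control cerebella. Pdgfra was likewise higher in adjacent GB344 and GB359 than in GB370, while the myelin genes did not follow that order, being low in GB370 and high in GB359. The part of tumor cells in these values was not tested.

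Among 23 mature oligodendrocyte genes, 12 progenitor genes, 9 transcription factors and 5 PDGF genes, 0 were called in adjacent against control cerebella. The median log2 fold changes of these lists were -0.71, -0.15, -0.46 and 0.21, beside 0.07 over all genes tested. The 9 members had a median of -0.64. Purkinje and granule neuron genes were also not called, with medians of -0.40 and -0.24.

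Between the control genotypes, 0 of 9 members were called by limma and 0 had an unadjusted p under 0.05, where 0.0578% of 15575 genes were called (0.0128% higher and 0.0449% lower) and 20.1% had such a p. The log2 fold changes, Brca2-mutant minus Trp53-mutant, ran from -0.24 for Mag (95% interval -0.51 to 0.04) to 0.34 for Olig1 (-0.18 to 0.85). The widest interval was that of Olig2, -0.86 to 1.02 around 0.08, and 0 of 9 members were free of overlap between the genotypes, beside 6.70% of all genes tested that were higher and 20.3% that were lower without overlap. GB512 had the lowest value of the 6 control cerebella for all 5 myelin members and the highest for Olig1, Olig2 and Pdgfra. Without it, the Olig2 difference was -0.44, and the Mbp and Mobp differences were 0.0026 and 0.0045. The choroid plexus gene Ttr was at 3849 to 5039 TPM in the Trp53-mutant controls, at 842 TPM in GB361 and at no more than 50.6 TPM in the other 8 samples. The part of choroid plexus tissue in the values above was not tested.

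The genes with the most similar profile over the 12 samples were found among 16004 genes by the root mean square difference of centred log2(TPM + 1). For the mean of the 5 myelin members they included Fgf1 (0.194), Hapln2 (0.207), Adcy1 (0.260) and Olfm3 (0.274). Hapln2 is myelin-related, whereas Adcy1 is abundant in granule neurons. For Sox10 the nearest was Bcas1 (0.207), a gene of newly formed oligodendrocytes, followed by Ttc9b, Kctd4, Rasgrp3 and Slain1 (0.224 to 0.236). For Pdgfra they were Mical1 (0.182), H1fx, Hells, 2810408A11Rik and Ier5 (0.277 to 0.295), of which Hells is a chromatin remodeler of dividing cells. For Olig2 they were Itga9 (0.198), Lmo3, L3hypdh, Rpa3 and Sh3pxd2b (0.260 to 0.326), and for Olig1 they were Elfn1, Chrm3, Sertm1, Spats2l and N4bp3 (0.205 to 0.231). These are descriptions over 12 samples, of which the tumor and adjacent samples came from the same 3 mice, with no test.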

How the data were processed

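RNA was isolated from flash-frozen tumor or cerebellum and sequenced after poly(A) selection. The authors quantified transcripts with Salmon 0.8.1 on mm10 and deposited TPM per gene for 12 samples. No counts were used, so depth is unknown and no interval for counting error is given. Values were analysed as log2(TPM + 1) with limma 3.58.1 in R 4.3.3 (lmFit, eBayes with trend), keeping in each comparison the genes that reached 1 TPM in 3 or more of its samples, and p-values were adjusted by Benjamini-Hochberg over all genes tested. The script was tested on simulated data. The calling thresholds, 0.01 for adjusted p and 1 for the size of the log2 fold change, are those of the study. Each fit used the groups compared and left out the pairing of tumor and adjacent samples by mouse. Controls were both genotypes together.

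The members and lists were chosen with earlier results of these data known. Of each other lineage list, up to 3 called genes per direction were named, of each other cell type its most abundant gene, and for each pattern the 5 nearest genes. Genes outside that rule (Anln, Ppp1r14a, Gpr17, Atoh1, Mki67, Top2a, Col3a1, Col1a1, Lum, Prx, Pdgfb, Pdgfrb) were named after their values were seen. Some genes of the lists are not reported here by name. Samples are different mice except tumor and adjacent, which are paired by mouse. Deviations from group means correlated at 0.228, 0.148 and 0.148 within mice, and at 0.0149 or less between mice. Alternatives were pseudocounts, filters, scalings, fits without a trend or with all groups, thresholds, single control genotypes, the mouse as block and leaving out each sample.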

Additional observations from a re-analysis of the deposited data

Results flagged for a closer look

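The control cerebellum of GB512 (Brca2-mut;Trp53-WT) stood apart from the other 5 control cerebella in 4 of 25 genes examined by Dixon's gap over range. It held Olig1 at 149 TPM (gap over range 0.823) and Olig2 at 47.1 TPM (0.699). Of the proliferation genes Mki67 and Top2a it held 5.63 TPM (0.970) and 8.42 TPM (0.950). Mki67 and Top2a were added after their values were seen, so their flags were known in advance and cannot be set beside chance. The other 2 flags were those of the members Olig1 and Olig2. Chance flags about 1 in 20 groups, so some flags arise by chance among this many genes. Atoh1 was at 0.0689 TPM in this sample, within the range of the other control cerebella.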

How the results depend on the processing

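In tumors against control cerebella the 7 calls held under all 20 alternatives, with Pdgfra between 3.16 and 4.08, Olig2 between 1.60 and 1.91 and the myelin genes between -6.02 and -3.21. Sox10 passed only where no fold minimum was set (-0.63). In tumors against adjacent cerebellum the 6 calls held with the mouse as a replicate block, which changed no call (Pdgfra adjusted p = 0.0207 in limma). Without the GB370 tumor Olig2 (1.46, limma adjusted p = 0.0102) and Mog (-3.02, 0.0127) were no longer called, while Pdgfra was called with median-of-ratios scaling (2.47), quantile normalization (2.50), all groups in 1 fit (2.26) and without the GB344 tumor (2.85). Sox10 turned from 0.01 to -0.07, -0.14, -0.13 and -0.20 without the GB359 tumor, the GB370 tumor, adjacent GB344 and adjacent GB370, and ran up to 0.35 without adjacent GB359. In adjacent against control cerebella 3 members passed at an adjusted p under 0.05 with no fold minimum, and leaving out single samples gave 0 to 2 calls. Olig2 turned to -0.0896 without adjacent GB359 and was otherwise up to 0.35. Between control genotypes, where 0 members were called under any alternative, Pdgfra turned to 0.0493 with median-of-ratios scaling and 0.0530 with quantile normalization, and leaving out single samples gave -0.19 to 0.0468 (the latter without GB361). There Olig2 ran from -0.44 without GB512, through -0.11 without GB517, to 0.35, Mbp from -0.31 to 0.0026 and Mobp from -0.30 to 0.0045, both highest without GB512. The cause of these changes was not tested.

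All genes called numbered 5830, 3607, 38 and 9 in the 4 comparisons, and 11573, 7980, 2524 and 71 at an adjusted p under 0.05 with no fold minimum. Without adjacent GB359 the second was 2377. Adjacent against control gave 4 with no filter, 63 with median-of-ratios scaling, 60 with quantile normalization, 10 without a trend, 4 with the Brca2-mutant controls alone and 0 to 586 when single samples were left out. The genotype count was 2 to 3 with a pseudocount of 0.01, other filters, other scalings or no trend, 21 with all groups in 1 fit and up to 29 without GB361. Scaling by median of ratios moved the all-gene median in tumors against adjacent cerebellum from -0.14 to 0.05. With 3 mice per group and unknown depth, the 95% interval of Olig1 in tumors against control cerebella ran from -0.22 to 0.82.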
